A study of Homo sapiens with 4 samples.

Results

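SNAI1, SNAI2, TWIST1, TWIST2, ZEB1 and ZEB2, which encode transcription factors of the epithelial-mesenchymal transition (EMT), were followed together with SOX4 and the cadherin genes CDH1, CDH2 and CDH11 in triple-negative breast cancer (TNBC) cells treated with mebendazole (MBZ). The members were named by symbol and matched to the rows of the read count table by Ensembl identifier. All 10 of 10 were found among 58735 genes. RNA was sequenced from the established human lines MDA-MB-231 and SUM159 (2 lines), each given either 1 μM MBZ, an anthelmintic benzimidazole that binds tubulin, or its vehicle DMSO for 72 h. Each of the 4 conditions had 1 library. Differences between 2 libraries therefore had no replicate check, and a difference between treatments cannot be told apart from a difference between single cultures.

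Total counts were 24897586 in the DMSO library and 17143139 in the MBZ library of MDA-MB-231, and 18708179 and 18904501 in those of SUM159. Levels are given in CPM, counts relative to library size after TMM scaling over the 4 libraries. At these depths 3 counts, the most that a count of 0 allows, corresponded to 0.129, 0.158, 0.181 and 0.145 CPM in the same order. Fold changes compare the MBZ library with the DMSO library of a line after TMM scaling of that pair, and a gene was compared in a line when its mean over the pair was at least 10 counts. Their 95% intervals are exact binomial intervals on a gene's reads. Intervals and floors cover counting error only, since amplified reads that carry no molecular identifier need not come from separate molecules.

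In an EMT, epithelial cells loosen their junctions and take on a migratory, mesenchymal form. SNAI, TWIST and ZEB factors bind E-boxes in DNA and repress epithelial genes, among them CDH1, which encodes the adhesion molecule E-cadherin. Carcinoma cells in this state often carry N-cadherin, encoded by CDH2, or cadherin-11 in its place, and TNBC lines of the mesenchymal-like type commonly have little E-cadherin.

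The label of both lines was set against marker genes. ESR1, the estrogen receptor gene, had 1, 0, 2 and 18 counts in the order MDA-MB-231 DMSO, MDA-MB-231 MBZ, SUM159 DMSO and SUM159 MBZ, which is the order of every series of 4 values that follows. PGR, the progesterone receptor gene, had 0 counts in all 4 libraries. ERBB2, the HER2 gene, had 1996, 1353, 1826 and 1216 counts, so its transcript was present in every library. VIM, which encodes the mesenchymal filament vimentin, had 47253, 20703, 54409 and 41720 counts.

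**Figure D1:**
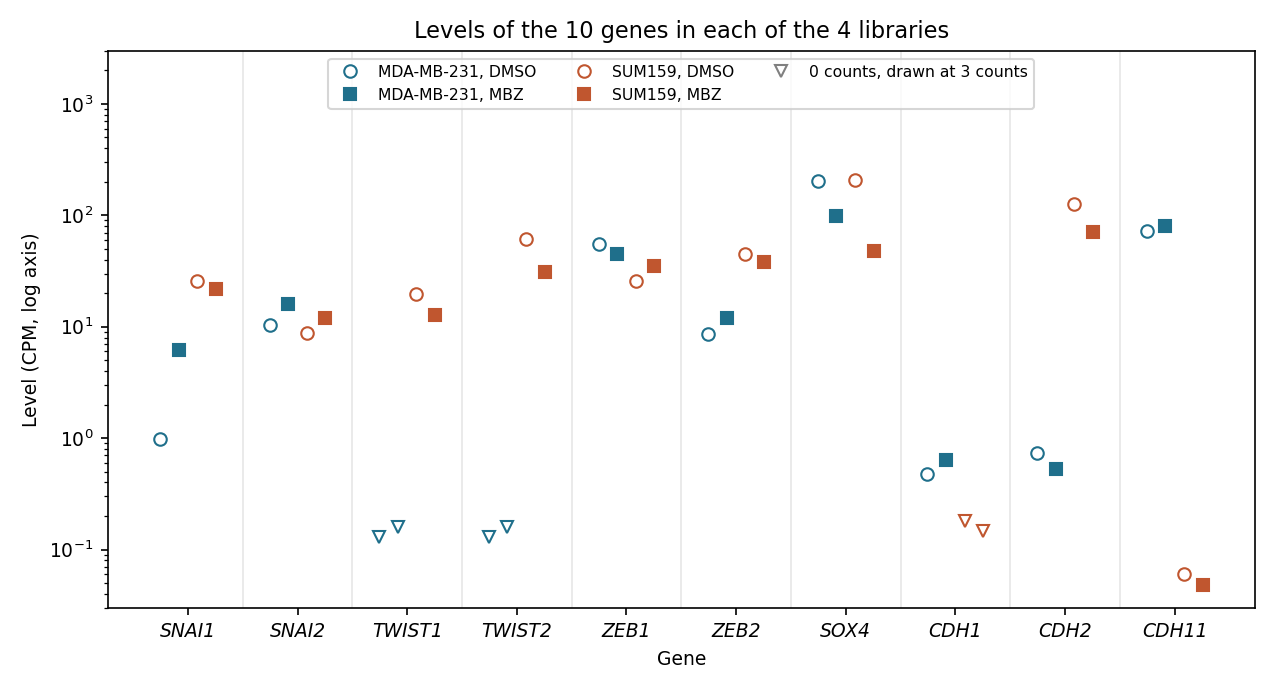
Levels of the 10 genes in each library, in CPM on a log axis. Circles are DMSO and squares MBZ libraries, and triangles mark libraries with 0 counts, drawn at the level of 3 counts. TWIST1 and TWIST2 had reads in SUM159 libraries and none in those of MDA-MB-231, and CDH11 lay at 72.2 and 79.4 CPM in MDA-MB-231 and at 1 count in each SUM159 library.

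SNAI1 (ENSG00000124216, chr20:49982980-49988886 on GRCh38, plus strand, 3 exons) encodes Snail, a zinc finger repressor of E-cadherin. It had 23, 118, 430 and 446 counts, or 0.990, 6.21, 26.0 and 21.6 CPM. The DMSO library of MDA-MB-231 was the lowest by far, and both SUM159 libraries were above both MDA-MB-231 libraries. With MBZ the level was 6.17-fold higher in MDA-MB-231, a log2 fold change of 2.62 (95% interval 1.98 to 3.34). In SUM159 the log2 fold change was -0.26 (-0.46 to -0.07), a value that turned to 0.0376 under scaling by total counts. In bulk RNA, fewer cells with a transcript and less of it per cell cannot be told apart. The level in the MBZ library of MDA-MB-231 was still 3.48-fold under that of SUM159, against 26.2-fold between the DMSO libraries.

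SNAI2 (ENSG00000019549, chr8:48917598-48921740, minus strand, 3 exons) encodes Slug, the related repressor. It had 239, 303, 146 and 245 counts, or 10.3, 15.9, 8.81 and 11.9 CPM. Its levels lay between 8.81 and 15.9 CPM, and the lines overlapped. The MBZ library was the higher of each pair, by a log2 difference of 0.61 (0.37 to 0.87) in MDA-MB-231 and of 0.43 (0.13 to 0.74) in SUM159. The first was 1.53-fold, just past 1.5-fold, and was 0.56, or under it, with DESeq2 size factors, while by total counts the second was 0.73, or past it.

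TWIST1 (ENSG00000122691, chr7:19020991-19117636, minus strand, 2 exons) and TWIST2 (ENSG00000233608, chr2:238848032-238910534, plus strand, 2 exons) encode basic helix-loop-helix factors that act in mesoderm and neural crest. TWIST1 had 0, 0, 329 and 265 counts, and TWIST2 had 0, 0, 1015 and 640 counts. Neither gene had a read in MDA-MB-231, so no fold change was computed there. In DMSO the SUM159 level was at least 154-fold higher for TWIST1 and at least 475-fold higher for TWIST2, against a floor of 3 counts per library. The exact intervals of these log2 differences, which also hold the error of the reads counted, had lower limits of 6.96 and 8.59. With MBZ the log2 fold change in SUM159 was -0.63 (-0.87 to -0.39) for TWIST1 and -0.98 (-1.13 to -0.84) for TWIST2. The first of these was 1.55-fold, just past the 1.5-fold used here, and was -0.33 under scaling by total counts.

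ZEB1 (ENSG00000148516, chr10:31318495-31529814, plus strand, 9 exons) and ZEB2 (ENSG00000169554, chr2:144364364-144521057, minus strand, 10 exons) encode zinc finger and homeobox repressors that oppose the miR-200 family in a mutual loop. ZEB1 had 1294, 862, 422 and 728 counts, or 55.7, 45.3, 25.5 and 35.3 CPM. ZEB2 had 199, 227, 752 and 788 counts, or 8.56, 11.9, 45.4 and 38.2 CPM. The 2 paralogs thus had the reverse order between the lines, ZEB1 being higher in MDA-MB-231 and ZEB2 in SUM159. For ZEB1 the log2 fold change with MBZ was -0.31 (-0.44 to -0.19) in MDA-MB-231 and 0.47 (0.30 to 0.65) in SUM159. For ZEB2 it was 0.46 (0.18 to 0.74) and -0.25 (-0.39 to -0.10), the latter turning to 0.0524 under scaling by total counts. None of these 4 changes reached 1.5-fold, although by total counts ZEB1 in SUM159, at 0.77, and ZEB2 in MDA-MB-231, at 0.73, did.

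ZEB1 shares 396 exonic bases with ZEB1-AS1 on the other strand, and whether the authors counted by strand was not stated in the sources used here, so reads over those bases cannot be told apart. ZEB1-AS1 itself had 61, 73, 49 and 124 counts. The partner of ZEB2, ZEB2-AS1, shares 1299 bases and had 0, 0, 0 and 2 counts. In all, 8 of 10 members share exonic bases with another annotated gene, and the partners with a row, other than ZEB1-AS1, had at most 3 counts in any library, while the partner of SNAI2 was not analysed here. Of the 7 genes that encode or host miR-200 family members and miR-205, MIR200CHG had 0 counts in all libraries and the most abundant, MIR205HG, had 0, 0, 11 and 0 counts. Mature microRNAs are not captured in a count of longer transcripts.

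SOX4 (ENSG00000124766, chr6:21593751-21598619, plus strand, 1 exon) encodes an HMG-box factor that has been placed above the EMT program in breast epithelium and acts downstream of TGF-beta. The study picked it out among genes lowered by MBZ in these same libraries, so its direction here is a description. The study followed its candidate genes by RT-qPCR and reported ITGB4, an integrin gene, as the only one lowered in both lines. That assay is not analysed here. In the libraries SOX4 had 4696, 1890, 3427 and 987 counts, or 202, 99.4, 207 and 47.9 CPM. The DMSO libraries of the lines lay within 1.02-fold of each other, and both MBZ libraries lay below both DMSO libraries. With MBZ it changed by a log2 value of -1.04 (-1.12 to -0.96) in MDA-MB-231, which is 2.06-fold, and -2.11 (-2.22 to -2.01) in SUM159, which is 4.32-fold. Counted from the most lowered gene, these were rank 696 of 15142 genes compared in MDA-MB-231 and rank 329 of 15674 in SUM159.

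SOX4, TWIST2 and CDH2 were lower by 1.5-fold in SUM159 with MBZ after TMM scaling, CDH2 not so by total counts. Their promoter sequences are shown because their windows, unlike those of ZEB1 and ZEB2, hold bases outside annotated exons. RefSeq promoter windows (GRCh38.p14) were found for 5 of 10 members, and those named only are SNAI1, SNAI2, TWIST1, CDH1 and CDH11. Each line gives the bases before the transcript start that lie in no annotated exon, read 5′ to 3′ on the gene's strand. Capitals mark the E-box CANNTG, a pattern that equals its own reverse complement and so was searched on both strands at once.
SOX4, chr6:21593501-21593750, plus strand: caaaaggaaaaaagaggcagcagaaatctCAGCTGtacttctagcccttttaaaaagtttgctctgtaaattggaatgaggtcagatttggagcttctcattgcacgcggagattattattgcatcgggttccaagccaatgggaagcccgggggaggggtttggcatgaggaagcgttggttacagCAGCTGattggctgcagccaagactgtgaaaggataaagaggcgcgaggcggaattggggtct
TWIST2, chr2:238847835-238848031, plus strand: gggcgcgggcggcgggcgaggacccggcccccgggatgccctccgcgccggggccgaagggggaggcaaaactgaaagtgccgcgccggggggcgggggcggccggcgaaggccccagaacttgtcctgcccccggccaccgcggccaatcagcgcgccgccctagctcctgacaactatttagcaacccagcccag
CDH2, chr18:28177131-28177380, minus strand: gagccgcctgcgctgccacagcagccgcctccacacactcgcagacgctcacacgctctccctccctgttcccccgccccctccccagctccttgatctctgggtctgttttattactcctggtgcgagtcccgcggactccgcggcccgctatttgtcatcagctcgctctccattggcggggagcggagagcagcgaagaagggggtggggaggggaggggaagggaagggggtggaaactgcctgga

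The SOX4 window of 250 bases held 2 E-boxes, both with the letters CAGCTG, whose first bases lie at -221 and -63 from the transcript start. The printed TWIST2 and CDH2 windows held none. Of 35114 promoter windows of 250 bases, 61.8% held at least 1 CANNTG. The narrower form CACCTG, searched on both strands and contained in CANNTG, was in 17.5% of windows and in none of these 3. The ZEB1 and ZEB2 windows lie wholly in annotated exons and are not shown. That of ZEB1 held 2 CACCTG, and that of ZEB2 held 1 CANNTG and 0 CACCTG. A match is only a match of letters, and its absence says only that the letters are not in the window. Over the full 250 bases before the start, of which 197 are printed for TWIST2, the share of G and C was 48.8% for SOX4, 68.4% for TWIST2 and 66.0% for CDH2, beside a median of 58.0% over all windows.

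CDH1 (ENSG00000039068, chr16:68737292-68835537, plus strand, 16 exons), the E-cadherin gene, had 11, 12, 0 and 0 counts, or 0.473 and 0.631 CPM in MDA-MB-231. Its log2 fold change in that line was 0.39 (-0.91 to 1.72), an interval that spans both directions, so a change was not detectable at this depth. Between the lines the level in MDA-MB-231 was at least 2.61-fold higher in DMSO, against the floor of 3 counts. That bound does not hold the error of the 11 reads, and the exact interval for SUM159 over MDA-MB-231 had its limit nearest 0 at -0.84 on the log2 scale.

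CDH2 (ENSG00000170558, chr18:27932879-28177946, minus strand, 16 exons), the N-cadherin gene, had 17, 10, 2102 and 1469 counts, or 0.731, 0.526, 127 and 71.2 CPM. Its level in SUM159 was 173.5-fold that in MDA-MB-231 in DMSO and 135.4-fold in MBZ. With MBZ the log2 fold change in SUM159 was -0.83 (-0.93 to -0.74), which is 1.78-fold lower, and in MDA-MB-231 -0.49 (-1.78 to 0.72), where the counts did not separate the libraries. By total counts the first was -0.53, or under 1.5-fold. CDH11 (ENSG00000140937, chr16:64943753-65126112, minus strand, 13 exons), which encodes the mesenchymal cadherin-11, had 1679, 1510, 1 and 1 counts. In DMSO the level in MDA-MB-231 was higher by 1197-fold, a ratio that rests on 1 count in SUM159, with a log2 difference of -10.22 (-15.53 to -7.74) for SUM159 over MDA-MB-231. Its log2 fold change in MDA-MB-231 was 0.12 (0.02 to 0.22), 1.09-fold.

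**Figure D2:**
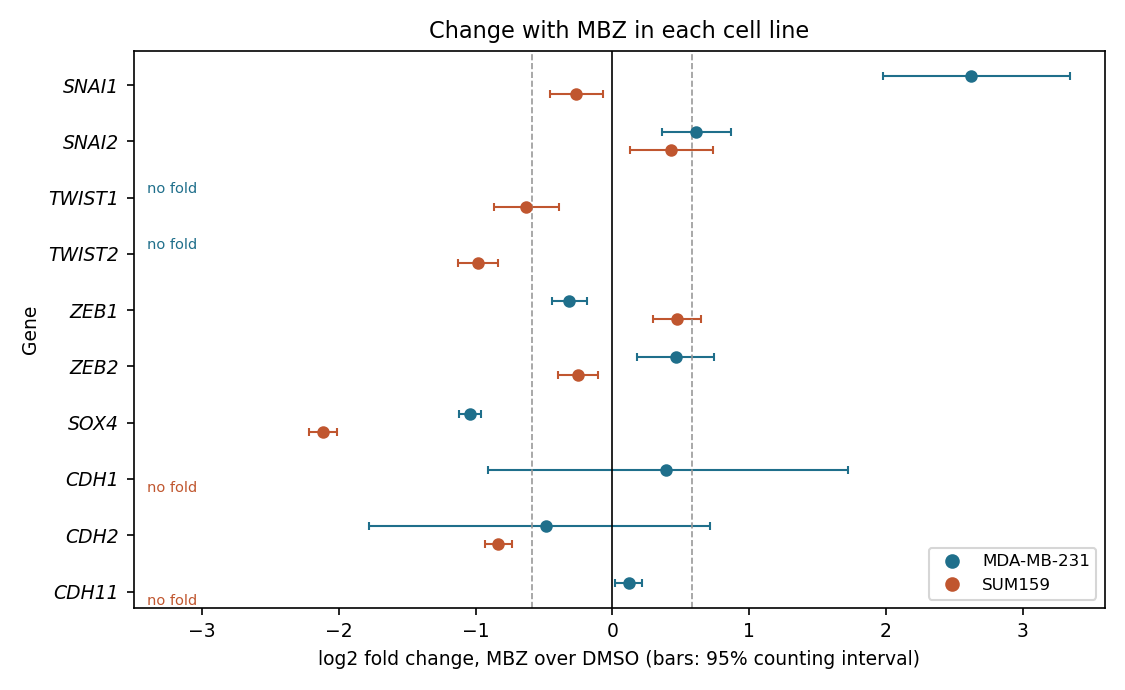
Log2 fold change of MBZ over DMSO for each gene and line, with bars for the 95% counting interval. Dashed lines mark 1.5-fold, and "no fold" stands where both libraries had 3 counts or fewer. SOX4 lay below the lower dashed line in both lines, and SNAI1 at 2.62 in MDA-MB-231 and -0.26 in SUM159.

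Of the 8 members compared in MDA-MB-231, 2 were at least 1.5-fold higher with MBZ (SNAI1 and SNAI2) and 1 was at least 1.5-fold lower (SOX4). Among all 15142 genes compared in that line, 18.3% were higher and 15.8% lower by the same fold, so the members' counts were of the size of the background. Of the 8 compared in SUM159, 0 were higher and 4 were lower (TWIST1, TWIST2, SOX4 and CDH2), against 21.5% higher and 21.7% lower of 15674 genes. Under scaling by total counts the split of all genes was 4408 higher and 1146 lower in place of 2765 and 2386 in MDA-MB-231, and 5135 and 2004 in place of 3376 and 3403 in SUM159, because that scaling moved the median of all genes by 0.27 and 0.30 on the log2 scale. The members at 1.5-fold or more were then 4 higher (SNAI1, SNAI2, ZEB2 and CDH1) and 1 lower in MDA-MB-231, and 2 higher (SNAI2 and ZEB1) and 2 lower (TWIST2 and SOX4) in SUM159. With DESeq2 size factors SNAI2 fell short, which left 1 higher and 1 lower in MDA-MB-231. A change named here is thus relative to the TMM reference.

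Compared in both lines were 6 members. SOX4 was the single one of them lower by 1.5-fold in both, where 4.71% of 13733 genes were. SNAI1, ZEB1 and ZEB2, 3 of 6, lay above 0 in 1 line and below 0 in the other with their whole intervals, against 20.0% of the same genes. Under scaling by total counts 0 of the 3 kept intervals on opposite sides. That scaling moved the median of all genes up by 0.27 in MDA-MB-231 and by 0.30 in SUM159. It therefore changed the side of 0 but hardly the difference between the lines, and the share of all genes is not given under it.

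A change shared by the lines was looked for with the quasi-likelihood test of edgeR on all 4 libraries, with the cell line in the model, so that the spread came from the difference in response between the lines. Of 16100 genes tested, 0 were lower, 0% of those tested, and 1 was higher, 0.00621%, at an adjusted p under 0.05, while 521 and 629 had an unadjusted p under 0.05. DESeq2 called 55 lower and 45 higher. The 1 gene called was IL24, named after its values were seen, with 28, 1421, 29 and 2856 counts. Of the 10 members, 9 were tested and none was called.

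SOX4 had a shared log2 fold change of -1.54 (SE 0.36) with an edgeR adjusted p of 0.471, lower in 2 of 2 lines. Under the alternatives its adjusted p was 0.00376 with no filter but at least 1 count, 0.0345 in DESeq2 and 0.299 with RLE normalization in edgeR, so it was called by the first and the second of these settings and not otherwise. SNAI1 had 1.09 (SE 0.72) with an edgeR adjusted p of 0.786, and CDH2 had -0.68 (SE 0.32) with an edgeR adjusted p of 0.713. TWIST2 had -0.93 (SE 0.47), an estimate made by SUM159 alone because MDA-MB-231 had no reads.

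The lines were compared in the same edgeR model, with the 2 treatments in the place of replicates. Among all genes, 11.6% were higher in SUM159 and 9.85% higher in MDA-MB-231 at an adjusted p under 0.05. Of the 9 members tested, 5 were higher in SUM159 (SNAI1, TWIST1, TWIST2, ZEB2 and CDH2), 1 was higher in MDA-MB-231 (CDH11) and 3 were not called (SNAI2, ZEB1 and SOX4). TWIST1, TWIST2 and CDH11 passed the filter on low counts through 1 line only, so that they had to differ, and their calls add nothing to the count.

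Of the genes with reads in both lines, CDH2 differed by 7.31 on the log2 scale (SE 0.38, edgeR adjusted p = 0.000323), SNAI1 by 3.21 (SE 0.75, edgeR adjusted p = 0.0252) and ZEB2 by 2.09 (SE 0.35, edgeR adjusted p = 0.00822). For ZEB1 the difference was -0.70 (SE 0.32) with an edgeR adjusted p of 0.169. SOX4 gave -0.46 (SE 0.36, edgeR adjusted p = 0.400), a mean over treatments of a level that was alike in DMSO and 2.08-fold apart in MBZ.

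Per kilobase of exon (RPKM), the 6 EMT factor genes together reached 10.5 RPKM in the DMSO library of MDA-MB-231 and 61.3 in that of SUM159. ZEB1 held 61.4% of the first sum and SNAI2 29.9%. TWIST2 held 46.9% of the second and SNAI1 24.8%, with ZEB1 at 4.81%. With MBZ, SNAI1 came to 25.6% of the sum in MDA-MB-231 from 5.54%. With the length of the MANE Select transcript, a choice made after seeing the data, ZEB2's share of the DMSO sum was 5.92% in MDA-MB-231 and 5.68% in SUM159 in place of 3.12% and 2.83%, and the other EMT factor shares stayed within 1.5 times of those given. SOX4 stood at 41.5 and 42.5 RPKM in the DMSO libraries, above each single EMT factor gene in both, although TWIST2 came to 45.7 RPKM in SUM159 with the MANE Select length.

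**Figure D3:**
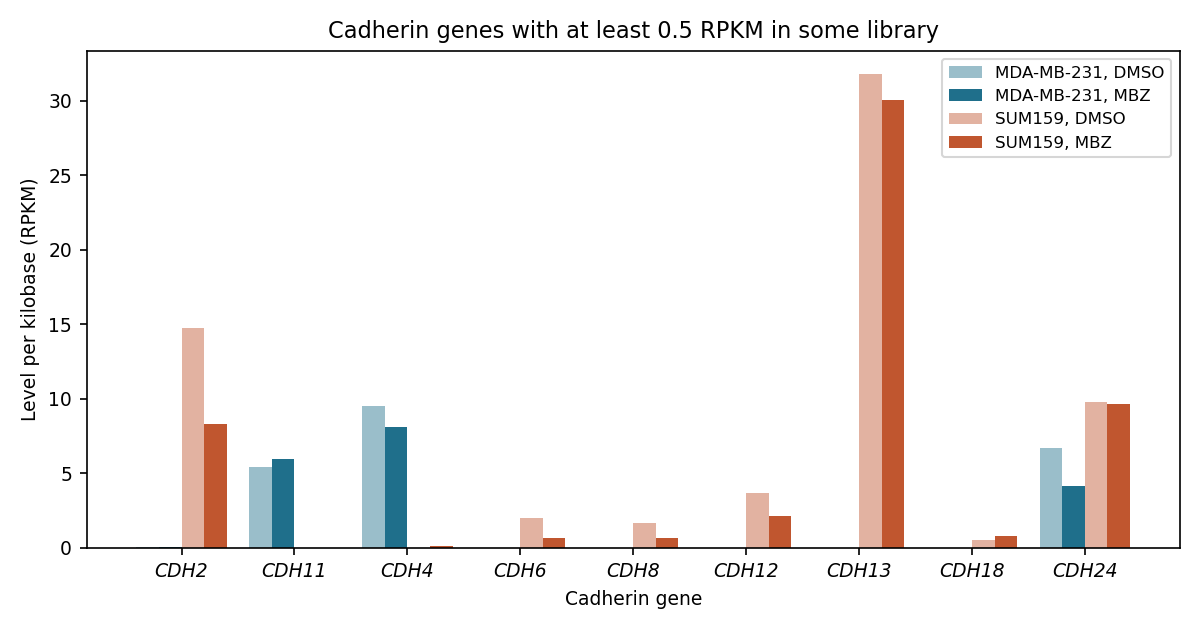
Level per kilobase of the 9 cadherin genes, of 23, that reached 0.5 RPKM in some library. Pale bars are DMSO and full bars MBZ libraries. The bars of CDH11 and CDH4 stand in MDA-MB-231 and those of CDH2, CDH12 and CDH13 in SUM159, while CDH24 is present in both.

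Of 20 other cadherin genes listed, 5 were compared in MDA-MB-231 and 9 in SUM159, beside 15142 and 15674 of the 58735 genes of the table, and 10 of the 20 had no read in MDA-MB-231 and 2 none in SUM159. Whether the lines differ in the family as a whole was not tested. In DMSO, CDH4, which encodes R-cadherin, held 43.2% of the cadherin sum per kilobase in MDA-MB-231, CDH24 30.5% and CDH11 24.7%. In SUM159, CDH13, which encodes the membrane-anchored T-cadherin, held 48.7%, CDH2 22.7% and CDH24 15.0%. With the MANE Select length the order turned in MDA-MB-231, to 36.6% for CDH11, 36.5% for CDH4 and 25.1% for CDH24, while SUM159 kept its order at 44.8%, 31.9% and 10.9%.

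With MBZ, CDH13 had 5802 and 6827 counts in SUM159, a log2 fold change of -0.08 (-0.13 to -0.03) that changes sign under scaling by total counts. CDH6 had 409 and 161 counts in that line, with -1.66 (-1.93 to -1.39), and CDH8 368 and 179, with -1.36 (-1.62 to -1.09). CDH12 had 343 and 249, with -0.78 (-1.02 to -0.54). CDH18 had 56 and 102, with 0.55 (0.06 to 1.05), and CDH24 609 and 747, with -0.02 (-0.18 to 0.14). Among the 9 compared in SUM159, 4 were lower by 1.5-fold and 1 higher (CDH23), and among the 5 in MDA-MB-231, 1 was lower (CDH24) and 2 higher (CDH15 and CDH23). The higher ones had 30 or 32 counts with MBZ and 3 or fewer without. By total counts 2 were higher and 3 lower in SUM159, and 3 higher and 0 lower in MDA-MB-231, and at a mean of 100 counts 0 were higher in either line. The list had a median log2 fold change of 0.35 for MDA-MB-231 and -0.08 for SUM159, beside -0.02 and -0.03 for all genes. Of all genes compared, 18.3% were higher and 15.8% lower by 1.5-fold in MDA-MB-231, and 21.5% and 21.7% in SUM159. These shares after TMM scaling stand beside the catenin counts below as well.

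Catenins and related proteins tie cadherins to actin. Of 12 such genes, 9 were compared in each line. In MDA-MB-231, 3 were lower and 0 higher, with a median log2 fold change of -0.53, and in SUM159 2 were lower and 1 higher, with a median of 0.11. The balance moved with the scaling, since by total counts 1 was lower and 0 higher in MDA-MB-231, and 1 lower and 4 higher in SUM159. CTNNB1, the gene of beta-catenin, had 16891, 9600, 4929 and 6416 counts, with log2 fold changes of -0.54 (-0.58 to -0.51) and 0.06 (0.01 to 0.12). CTNNA1, the gene of alpha-catenin, had 30184, 17440, 8420 and 12981 counts, with -0.52 (-0.55 to -0.49) and 0.31 (0.27 to 0.35). JUP, which encodes plakoglobin, was the gene lower past 1.5-fold in both lines, at -1.07 (-1.16 to -0.98) and -1.45 (-1.51 to -1.39).

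**Figure D4:**
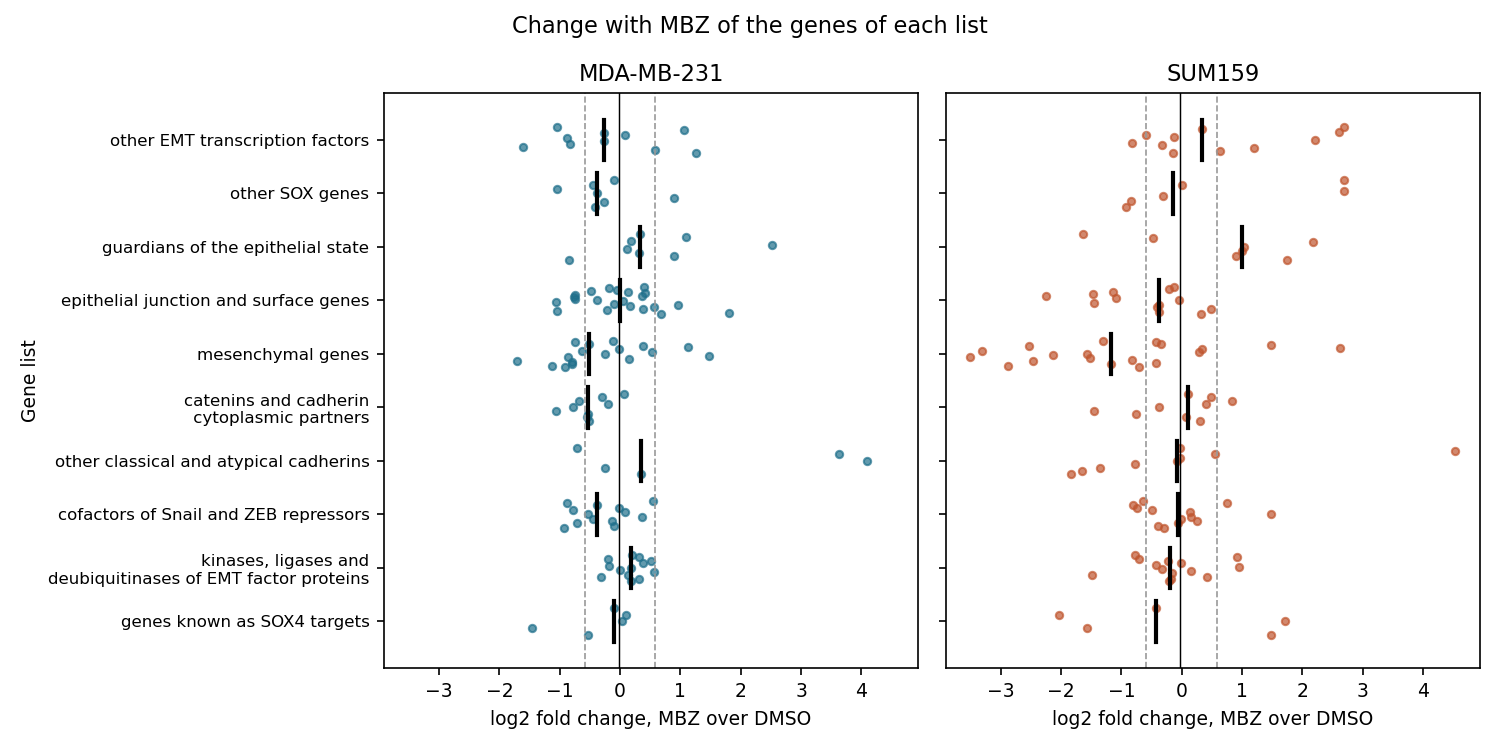
Log2 fold change of MBZ over DMSO for the compared genes of each list, in MDA-MB-231 (left) and SUM159 (right). Black bars are list medians, the thin line the median of all genes and dashed lines 1.5-fold. The mesenchymal genes have the lowest median in SUM159, at -1.17.

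The lists that surround the members were described by count and median, and no listed gene that was compared had 0 counts in 1 of its 2 libraries. Every list count after TMM scaling is to be read beside the shares of all genes compared. Those were 18.3% higher and 15.8% lower by 1.5-fold in MDA-MB-231, and 21.5% and 21.7% in SUM159. Whether a list departs from these shares was not tested. Scaling by total counts turned the sign of some list medians. In MDA-MB-231 they came to 0.26 for the epithelial list and 0.16 for the SOX4 targets. In SUM159 they were 0.15 for other SOX genes, 0.22 for other cadherins, 0.24 for cofactors and 0.11 for kinases and ligases. The median of all genes turned as well, to 0.25 in MDA-MB-231 and 0.27 in SUM159, so these turns do not set the lists apart from all genes. Of 24 mesenchymal genes, 17 were compared in MDA-MB-231, of which 8 were lower and 2 higher, and 19 in SUM159, of which 12 were lower and 2 higher. Their median log2 fold changes were -0.52 and -1.17. Scaled by total counts, 4 were lower and 4 higher in MDA-MB-231, and 10 lower and 4 higher in SUM159. At a mean of 100 counts 1 was higher in MDA-MB-231, and SPARC, 1 of the 8 lower there, had 38 and 18 counts with an interval that includes 0 (-1.70 to 0.04). FN1, the fibronectin gene, had 24016, 9078, 98237 and 16694 counts, with -1.13 (-1.17 to -1.10) and -2.87 (-2.90 to -2.85). VIM had -0.92 (-0.94 to -0.89) and -0.70 (-0.72 to -0.68).

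Of 25 epithelial junction and surface genes, 22 were compared in MDA-MB-231, with 3 higher and 5 lower, and 13 in SUM159, with 0 higher and 5 lower. Their medians were -0.0033 and -0.37. EPCAM, an epithelial surface protein gene, had 144, 190, 6 and 9 counts, and CLDN1, a tight junction gene, had 44, 128, 267 and 415. PPL, which encodes the desmosomal plakin periplakin, had 1633, 810, 814 and 213. Among the genes compared, directions were thus mixed in MDA-MB-231, and none was 1.5-fold higher in SUM159 after TMM scaling. Some listed genes were too low in SUM159 to be compared. Of these, PKP1 had 0 counts with DMSO and 9 with MBZ, EVPL 0 and 8, and CLDN7 5 and 2. Total counts gave 8 higher and 2 lower in MDA-MB-231, and 2 higher and 5 lower in SUM159. Of the 3 higher in MDA-MB-231, 1 remained at a mean of 100 counts, and CRB3, with 8 and 13 counts, had an interval that includes 0 (-0.41 to 2.45).

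Of 14 guardians of the epithelial state, factors that hold the epithelial program in place, 8 were compared in MDA-MB-231, with 3 higher and 1 lower, and 7 in SUM159, with 5 higher and 1 lower. The medians were 0.33 and 1.00. With total counts the higher guardians came to 5 and the lower to 0 in MDA-MB-231, while in SUM159 the counts stayed at 5 and 1. The lower one in MDA-MB-231 was lost at a mean of 100 counts, and GRHL3, 1 of the 3 higher there, had 13 and 20 counts with an interval that includes 0 (-0.18 to 2.02). KLF4, a zinc finger factor, had 885, 4207, 316 and 789 counts, with log2 fold changes of 2.52 (2.42 to 2.63) and 1.00 (0.81 to 1.20). EHF, an ETS factor of epithelia, had 732, 1292, 60 and 340 counts, with 1.09 (0.96 to 1.22) and 2.18 (1.79 to 2.61). GATA3, a luminal factor, was at 0.34 (0.03 to 0.65) and -1.63 (-1.95 to -1.33). GRHL2 and OVOL2, which restrain ZEB1 in epithelia, had at most 12 counts in any library.

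Of 15 other EMT transcription factor genes, 10 were compared in MDA-MB-231, with 2 higher and 4 lower, and 11 in SUM159, with 5 higher and 2 lower. The medians were -0.27 and 0.33. These counts became 3 higher and 3 lower in MDA-MB-231, and 6 higher and 0 lower in SUM159, by total counts. At a mean of 100 counts the higher ones came to 1 and 3. SNAI3, 1 of the 2 higher in MDA-MB-231, had 8 and 16 counts there, with an interval that includes 0 (-0.04 to 2.70). SOX9, a SOX factor with roles in stem cells, had 4790, 1916, 16 and 129 counts, at -1.05 (-1.13 to -0.97) and 2.69 (1.94 to 3.54). FOSL1, an AP-1 subunit, had 9618, 6646, 585 and 4434 counts, at -0.26 (-0.31 to -0.22) and 2.61 (2.48 to 2.73), the first of which turned to 0.0051 under scaling by total counts. HMGA2, a chromatin protein, had 2808, 1925, 59 and 339 counts, at -0.27 (-0.36 to -0.19) and 2.20 (1.80 to 2.63). PRRX1, a homeobox factor, had 48, 13, 22 and 63 counts. FOSL1, HMGA2 and SOX9 were thus abundant in MDA-MB-231 and higher with MBZ in the line where they had been low. They were picked after their values were seen, and the list does not share this pattern throughout. FOXC2, a forkhead factor, had 0, 2, 406 and 781 counts. It rose from 24.5 to 37.9 CPM in SUM159, the line where it was already the higher.

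Of 13 other SOX genes, 7 were compared in MDA-MB-231, with 1 higher and 1 lower, and 6 in SUM159, with 2 higher and 2 lower, and the medians were -0.38 and -0.15. In SUM159 the lower ones came to 1 by total counts, with 2 higher. The higher one in MDA-MB-231 was SOX5, with 9 and 14 counts and an interval that spans 0 (-0.40 to 2.30). At a mean of 100 counts 0 were higher in either line, and 1 was lower in SUM159. SOX12, which with SOX4 and SOX11 forms the SoxC group, had 1353, 842, 2232 and 1465 counts, at -0.41 (-0.54 to -0.29) and -0.92 (-1.02 to -0.83). SOX11 had at most 2 counts. Of 5 genes known as SOX4 targets, 1 was lower and 0 higher in MDA-MB-231, and 2 lower and 2 higher in SUM159 (1 higher at a mean of 100 counts), with medians of -0.11 and -0.43. TEAD2, a Hippo pathway factor, had 1377, 414, 1589 and 665 counts and was lower in both lines, at -1.46 (-1.62 to -1.30) and -1.57 (-1.71 to -1.44). EZH2, which encodes a histone methyltransferase, had 2600, 1487, 221 and 767 counts, at -0.53 (-0.63 to -0.44) and 1.48 (1.26 to 1.70). SEMA3C, a semaphorin gene, was at 0.09 (0.01 to 0.18) and -2.03 (-2.12 to -1.93).

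Of 13 cofactors that Snail and ZEB repressors recruit, all were compared in both lines, with 0 higher and 4 lower in MDA-MB-231 and 2 higher and 3 lower in SUM159. The medians were -0.38 and -0.06. Here too the balance moved by total counts, to 2 higher and 2 lower in MDA-MB-231 and to 2 higher and 0 lower in SUM159. DNMT1, the maintenance DNA methyltransferase gene, had 10856, 4897, 2208 and 4622 counts, at -0.88 (-0.92 to -0.83) and 0.75 (0.68 to 0.82). AJUBA, a LIM protein gene, was at 0.55 (0.50 to 0.61) and -0.64 (-0.72 to -0.56). Of 15 kinases, ligases and deubiquitinases that act on EMT factor proteins, 13 were compared in MDA-MB-231 and 0 passed 1.5-fold, and of 14 in SUM159, 2 were higher and 3 lower, with medians of 0.19 and -0.19. Total counts gave 3 higher and 0 lower in MDA-MB-231, and 3 higher and 1 lower in SUM159. None of the 7 miR-200 and miR-205 genes had enough counts to be compared.

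Genes whose pattern over the 4 libraries was nearest to a member's were ranked by distance in centred log2 CPM, over the 11152 genes that averaged 100 counts or more. For SOX4 they were MYL9, PLEKHA6 and METTL7A, at distances of 0.32, 0.33 and 0.36. MYL9, which encodes a myosin light chain, had 2774, 1017, 1643 and 639 counts. For SNAI1 they were ANXA8, HSPB8 and CEMIP at 0.53 to 0.62. TWIST1 and CDH2 had CDH12 and NUDT11 in common among their 3, genes with 0 counts in MDA-MB-231. For ZEB1 the nearest was TAF15 at 0.05. A small distance over 4 libraries is a likeness in these libraries alone.

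Markers of other cell types were read beside these values. The leukocyte list summed to 61, 67, 696 and 173 counts over 5 genes, with CD14 as the most abundant (53, 40, 477 and 110 counts) and PTPRC next in SUM159. CD3E, a T cell marker, had at most 1 count in any library. The list was lower with MBZ in SUM159, as SOX4, CDH2 and the TWIST genes were, and its part in those values was not tested. The endothelial list summed to 440, 423, 678 and 872 counts, led by PECAM1, with CDH5 at 0, 0, 1 and 6. The erythroid list summed to 0, 1, 2 and 5. The basal and luminal keratin list summed to 50351, 23668, 13654 and 16002, led by KRT8, and the mesenchymal-like list of VIM, CD44 and CD24 to 56615, 28467, 76548 and 60523. That last list was led by VIM in every library. CD24, a surface marker low in stem-like cells, had 293, 329, 1900 and 235 counts. The study paired low CD24 with high CD44, so the sum of the list does not give the level of a cell state.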

How the data were processed

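Read counts were analysed in 4 libraries of MDA-MB-231 and SUM159 cells. The authors mapped the reads to GRCh38 and deposited whole-number counts per gene without normalization, and the submitters' processing notes name STAR 2.5, HTSeq 0.6.1 and edgeR 3.16.5. The annotation release and strand setting were not given in the sources used here. Gene positions are those of GENCODE release 44, which may differ. The 528 rows without a symbol were kept under their identifiers, and 0 rows named no gene.

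Fold changes were differences of log2 CPM (prior count 0.125) after TMM normalization of a line's 2 libraries with edgeR 4.0.16 in R 4.3.3. The models used all 4 libraries with filterByExpr and Benjamini-Hochberg adjustment, and DESeq2 1.42.0 was an alternative. The common BCV was 0.323. Intervals were Clopper-Pearson (95%). Tables and figures were made with Python 3.11.15. Levels across genes used the union of a gene's exons as its length. Alternatives were other normalizations, prior count 2, a fold of 2, other count minimums, and MANE Select lengths.

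Genes named were the 10 members, genes of the 11 pathway and 6 marker lists, and the 3 nearest genes of each member that averaged 100 counts or more. ZEB1-AS1 and ZEB2-AS1, named because they overlap members, fall outside this rule. So do IL24, named after its values were seen, and ITGB4, named for the study's RT-qPCR. Members and lists were chosen with earlier results of these data known. Some genes that this rule names are not reported here.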

Additional observations from a re-analysis of the deposited data

Results flagged for a closer look

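Several genes had log2 fold changes with MBZ of opposite sign in the 2 lines, with counting intervals on opposite sides of 0 in each. With 1 library per condition this difference was not tested. The values below are the log2 fold change in SUM159 minus that in MDA-MB-231. Among the members it was -2.89 for SNAI1, 0.78 for ZEB1 and -0.71 for ZEB2. Under scaling by total counts 0 of 3 kept intervals on opposite sides, although the difference between the lines hardly changed. The values in MDA-MB-231 and SUM159 were then 2.89 and 0.0376 for SNAI1, -0.0477 and 0.77 for ZEB1, and 0.73 and 0.0524 for ZEB2.

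Among the 32 list genes named and compared in both lines, 13 had this pattern and 11 of 13 kept it under scaling by total counts, HMGA2 and FOSL1 being the exceptions. Examples from the lists were picked after their values were seen, so this count is not set against the share among all genes. Of the EMT factors, the difference was 3.74 for SOX9, 2.87 for FOSL1, 2.80 for PRRX1 and 2.48 for HMGA2. It was -1.97 for GATA3, 0.83 for CTNNA1 and 0.61 for CTNNB1. Of the cofactors it was 2.01 for EZH2, 1.63 for DNMT1 and -1.19 for AJUBA. It was -2.12 for SEMA3C, -3.77 for CD24 and -3.94 for PTPRC.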

How the results depend on the processing

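Of 254 recomputed values, 189 kept their call or stayed within their counting interval or 1.5 times the count. Another 63 moved further, 2 gained a call by adjusted p and 0 reversed a called direction. A log2 fold change that crossed 1.5-fold, as those of ZEB2 and CDH1 in MDA-MB-231 did by total counts, is not counted as a gained call. Scaling by total counts moved 35 of 64, TMM over all 4 libraries 0 of 16, RLE normalization 0 of 22, DESeq2 size factors 0 of 20 and prior count 2 moved 0 of 16, although SNAI2 in MDA-MB-231, at 0.56 with DESeq2 size factors, came under 1.5-fold. Under total counts the log2 changes of MDA-MB-231 were 0.88 for SNAI2, -0.0477 for ZEB1, -0.77 for SOX4 and 0.39 for CDH11. In SUM159 they were 0.0376 for SNAI1, -0.33 for TWIST1, -0.68 for TWIST2, 0.77 for ZEB1, 0.0524 for ZEB2, -1.81 for SOX4 and -0.53 for CDH2. This follows from the shift of all genes by the scaling. Genes higher in MDA-MB-231 numbered 1370 at 2-fold, 9089 with every gene of at least 1 count, 1114 at a mean of 100 counts and 4408 by total counts, and genes lower numbered 779 at 2-fold, 5693 with every gene and 1146 by total counts. In SUM159 those higher were 1996, 11750, 1422 and 5135 in the same order, and those lower 1676, 6844, 2250 and 2004. Epithelial genes higher in MDA-MB-231 were 1 at a mean of 100 counts and 8 by total counts, those lower 2 by total counts, and those higher in SUM159 2 by total counts. Mesenchymal genes higher in MDA-MB-231 were 1 at a mean of 100 counts and 4 by total counts, those lower 4 by total counts, and those higher in SUM159 4 by total counts. Shared changes called were 153 higher and 145 lower with no filter but at least 1 count, and 45 and 55 in DESeq2. SOX4 was then called, at -1.57 (edgeR adjusted p = 0.00376) and -1.60 (DESeq2 adjusted p = 0.0345), and not with TMM and the filter (edgeR adjusted p = 0.471) or RLE normalization (edgeR adjusted p = 0.299), and the cause was not tested. The MANE Select length, chosen after seeing the data, moved 2 of 16 shares. Low counts, as for CDH1, CDH15, CDH23 and SNAI1 in DMSO-treated MDA-MB-231 cells, limit those values.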
